A study of Mus musculus with 248 samples.

Results

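The enzymes, transporters and regulators that take glucose through glycolysis, lactate formation and the pentose phosphate pathway were followed in mouse blood while a leukemia developed. The set holds 34 genes of 18883 measured in either cohort, taken by symbol through the Ensembl identifiers of the deposited tables. The list of symbols was chosen with earlier results of these data known. All 34 were among the 18508 genes of the training table, and 33 were among the 13607 genes of the validation table, which does not list Pklr. They fall into 5 genes of hexose uptake and phosphorylation, 7 of upper glycolysis, 7 of lower glycolysis, 4 of lactate handling, 4 regulators and 7 of the pentose phosphate pathway.

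Total RNA of peripheral blood was sequenced in bulk from 35 C57BL/6 mice, with 55 CM and 77 Ctrl libraries in a training cohort and 68 CM and 48 Ctrl libraries in a validation cohort. The CM arm carried Cbfb+/56M, a knock-in that codes for the fusion of Cbfb with MYH11, together with Mx1-Cre, and comprised 7 training mice and 13 validation mice. The Ctrl arm comprised 7 and 8 littermates labelled CW, HW or WT, which lacked the knock-in, the Cre or both. Mice of both arms had received poly(I:C), 7 injections of 14 mg/kg begun between 4 and 8 weeks of age, which switches on Cre from the interferon-responsive Mx1 promoter. That promoter is active in blood-forming cells and in other tissues. Samples were drawn from the retro-orbital sinus before induction (T0) and monthly after it (T1 to T10). In the validation cohort they were also drawn by week (WK10 to WK28) or in overt leukemia (L), which the labels define by over 20% cKit+ blasts. Each library is from a named mouse, and replicates are separate mice.

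Glycolysis splits glucose into pyruvate and yields ATP, and many dividing cells turn much of that pyruvate into lactate. The pentose phosphate pathway branches off after the first phosphorylation of glucose and supplies NADPH and ribose for nucleotides. Several steps are served by isoenzymes that differ between blood cell types, and red cells depend on glycolysis because they have no mitochondria. Bpgm makes 2,3-bisphosphoglycerate, the red cell metabolite that loosens the grip of hemoglobin on oxygen, and Pklr is the pyruvate kinase of liver and red cells.

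Depth per library was 16 to 36.3 M reads (training) and 8.68 to 34.4 M reads (validation). Levels are log2 CPM, the log2 of reads scaled to a common library total. A gene without a read sits near -6.52 in the training table and near -6.30 in the validation table. The labels call the tissue PBMC, mononuclear cells of blood, yet neutrophil, platelet and red cell markers were also present. In training CM mice at T0 the median summed level was 11.29 for 13 neutrophil markers, 11.47 for 12 erythroid markers and 12.92 for 10 B cell markers.

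Some libraries stood apart. The last library of CM mouse 3368 (month 10) had Kit, the gene of the cKit blast marker, at 2.34 log2 CPM, against 6.61 to 9.45 in the last libraries of the other 6 CM training mice. Globin genes took 21.7% of its reads. In CM mouse 2700 of the validation cohort the mean level of the MYH11 part of the knock-in was -3.67, against 3.30 to 4.61 in the other CM mice of that cohort. The libraries of CM mouse 2731, labelled female, differed in sex-linked genes. Its T0 library had the Y-linked Ddx3y at 5.21 and the female-specific Xist at 1.24, its T1 library had them at -2.35 and 6.34, its T2 library at -4.29 and 2.08, and its leukemia library at -3.46 and -1.18. The T0 and leukemia libraries of this mouse form 1 of the 6 leukemia pairs, and whether both came from the same animal was not tested. Without that pair 22 of 33 members were called in leukemia, beside 8459 of 13607 genes. Of these members 15 rose and 7 fell, and Rpe (0.31, adjusted p = 0.0545, limma) and Pfkfb3 (-0.73, adjusted p = 0.0526, limma) lost their calls. The T6 library of Ctrl mouse 2702 held 868 genes more than 2 log2 units above each of the other 5 Ctrl T6 libraries, where that number was 2 to 13. Rod photoreceptor genes, named here after their values were seen, were among them, with Sag at 12.03 (2.10 to 3.28 in the other Ctrl T6 libraries) and the phosphodiesterase subunit Pde6b at 11.21 (1.01 to 2.13).

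Some glucose genes stood apart in that Ctrl T6 library as well. Aldoc reached 7.37 log2 CPM against 2.26 to 2.60 in the other 5 Ctrl T6 libraries. Hk2 reached 8.53 against 4.50 to 5.48, Ldhb 4.45 against 0.79 to 1.53, Slc16a1 8.66 against 5.19 to 5.90 and Pfkm 5.21 against 1.28 to 2.97. These were the 5 of 33 members that lay more than 2 log2 units above the rest, beside 868 of 13607 genes. In all, 19 of 33 members lay above and 10 below each of the other 5 libraries, among the latter Hk3 at 3.98 (4.19 to 5.47) and Pgd at 5.20 (5.73 to 6.68). How many of all genes lay above or below was not counted, so these counts are not read as a result about the members. Kit was not raised, at 2.10 (0.89 to 2.66). Where these transcripts came from was not tested. The library enters the validation comparison at month 6, where no member was called with it or without it.

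Before induction the order of levels per kilobase of transcript was similar in the cohorts. In training CM mice at T0 the highest median was that of Taldo1, the transaldolase of the pentose phosphate pathway, at 227 CPM per kb. Aldoa, the main aldolase, followed at 165, Bpgm at 155, Pkm, the pyruvate kinase of most tissues, at 122.5 and Gpi1, glucose-6-phosphate isomerase, at 103.9. Ldha stood at 66.2, Hk1 at 32.02, Hk3 at 13.2, Pfkm at 2.08 and Ldhb at 1.92. Pklr was last at 0.00376, which is the value of a library without a Pklr read and not a measured level. In validation CM mice at T0 Taldo1 was again at the top with 538 CPM per kb, followed by Bpgm with 251. In the last training CM libraries Aldoa led with 505 CPM per kb and Ldha was next with 269. In leukemia in the validation cohort Aldoa led with 540 and Ldha stood at 270. Hk1 lay at 197 and 148 in these late groups, and Pfkm at 32.3 and 26.1. Gapdh stood at only 22.1 at T0 and 6.18 in the last training libraries. Gapdh, Pgk1, Pgam1, Ldha, Tpi1 and Eno1 have many processed copies in the mouse genome, so the counting may have split or dropped their reads and their levels are uncertain.

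The main comparison asked how the genes differed between the last library of each CM mouse and its own T0 library. In the training cohort 10 of 34 members rose and 6 fell over 7 pairs, which is 47.1% beside 46% of all genes. The muscle phosphofructokinase Pfkm, hexokinase 1 (Hk1) and the lactate transporter Slc16a1 rose most among members other than Pklr, and hexokinase 3 (Hk3), Ldhb and Pfkfb4 fell most. In the validation cohort 16 of 33 members rose and 8 fell from T0 to leukemia over 6 pairs, 72.7% beside 64.5% of all genes. Split by direction, 29.4% of members rose beside 10.1% of all genes in the training cohort, and 17.6% fell beside 35.9%. For the validation cohort 48.5% rose beside 31.4%, and 24.2% fell beside 33%. A call is an adjusted p under 0.05 in limma over all genes of the table. The median change was 0.27 over members and -0.57 over all genes in the training cohort, and 0.26 and -0.04 in the validation cohort. Under median-ratio scaling the training median of all genes was -0.10, with 13 members higher and 4 lower. How many of all genes were called under that scaling is not given here. Fewer cells of a type and less RNA per cell cannot be told apart in bulk blood. By the labels each monthly timepoint of the validation cohort, and L, had a sequencing run batch of its own, so leukemia and run cannot be told apart there.

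Of the members that rose in the training cohort, 9 of 10 (90%) also rose in the validation cohort, which is 56.2% of its 16, and the other, Pklr, is not in that table. The 9 were Hk1, Slc2a3, Pfkm, Aldoa, Tpi1, Ldha, Slc16a1, Pdk3 and Tkt. Of these, Hk1, Slc2a3 and Tpi1 also rose in training Ctrl mice from T0 to T10. The training changes of Slc2a3, Tpi1 and Aldoa were not called as differing from those in Ctrl mice. Over the 13232 genes measured in both cohorts, 1287 of the 1528 that rose in the training cohort (84.2%) also rose in the validation cohort, 30.3% of its 4245. Among members that fell, 5 of 6 (83.3%) also fell there, 62.5% of its 8, and these were Hk3, Ldhb, Pdk1, Pfkfb3 and Pfkfb4. Over the genes of both cohorts, 3090 of the 4231 that fell in the training cohort (73.03%) also fell in the validation cohort, 72.1% of its 4284. The cohorts share no mouse.

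**Figure D1:**
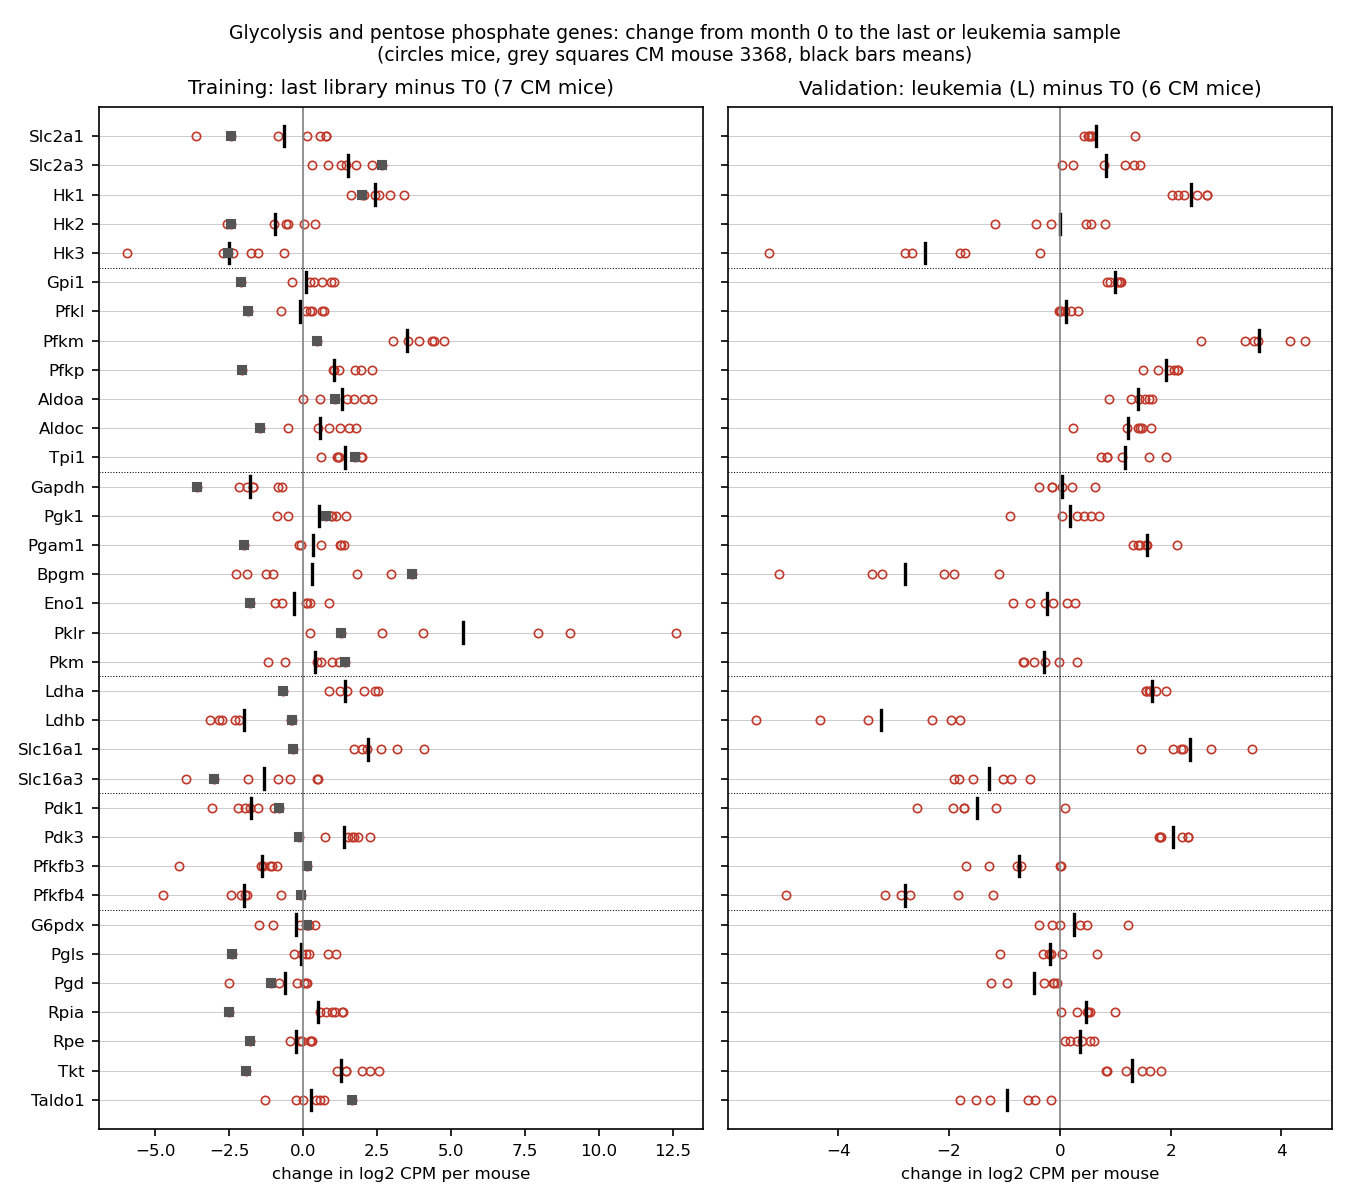
Change in log2 CPM of each member within a mouse, from T0 to the last library (training, left, 7 CM mice) and from T0 to leukemia (validation, right, 6 CM mice). Circles are mice, grey squares are mouse 3368 and black bars are means. Pfkm, at 3.499 and 3.59, and Hk1, at 2.43 and 2.37, have similar means in the cohorts, while Bpgm spreads over both directions in the training mice.

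Blood cell markers moved in the same libraries. In the training cohort markers of neutrophils (8 of 13), B cells (10 of 10), T cells (11 of 11), NK cells (8 of 8) and monocytes (7 of 10) fell, with none higher. The summed neutrophil level went from 10.61 to 13.81 (median 11.29) at T0 to 7.48 to 10.96 (median 8.95) in the last libraries. Basophil and mast cell markers rose (6 of 8), as did cell cycle genes (11 of 12), stem and progenitor markers (6 of 12, with 3 lower) and erythroid markers (8 of 12). Platelet markers had 2 of 12 higher. Among validation mice B, T and NK cell markers fell in full, 6 of 10 monocyte markers fell, 8 of 13 neutrophil markers fell with 1 higher, and 10 of 12 platelet markers fell with 1 higher. There all 12 cell cycle genes and 6 of 7 basophil and mast cell markers rose, while erythroid markers (5 of 12 higher, 3 lower) and stem and progenitor markers (7 of 11 higher, 3 lower) went both ways. No marker list had all of its markers at 0 in any group. The part of these shifts in the changes of the glucose genes was not tested.

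In hexose uptake and phosphorylation, transcripts of the hexokinases Hk1 and Hk3 moved in opposite directions in CM mice. In training Ctrl mice Hk1 also rose and Hk3 also fell from T0 to T10, as given below. Hk1, the hexokinase of most tissues, ranged from 6.80 to 7.33 (median 7.10) log2 CPM at T0 and from 8.54 to 10.51 (median 9.72) in the last training CM libraries. The ranges did not overlap, and the change was 2.43 ± 0.25 (SE, 7 pairs, adjusted p = 6.27e-05, limma). Validation mice had Hk1 going from 6.28 to 7.19 (median 7.10) to 8.94 to 9.81 (median 9.30), again without overlap. That change was 2.37 ± 0.12 (6 pairs, adjusted p = 2.81e-06, limma). Hk3, a hexokinase of myeloid cells, moved the other way. It ranged from 5.08 to 7.86 (median 5.41) at T0 and from 1.89 to 5.03 (median 3.16) in the last training libraries, with every late value below every early one. The change was -2.51 ± 0.51 (adjusted p = 0.00215, limma). Validation Hk3 changed by -2.43 ± 0.53 (adjusted p = 0.004, limma), from 5.38 to 6.13 (median 5.69) to 0.67 to 5.77 (median 3.40), and the highest leukemia library lay within the T0 range. Hk1 minus Hk3 within a library was -0.76 to 1.95 (median 1.72) at T0 and 4.30 to 8.62 (median 5.95) at the end in the training cohort. The median of that difference was 1.61 at T0 and 5.85 in leukemia in the validation cohort. Such differences between isoenzymes are in log2 CPM and not per length, so their change between samples is what can be read.

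Hk2, the inducible hexokinase, was not called in either cohort, at -0.95 ± 0.38 (adjusted p = 0.0611, limma) and 0.01 ± 0.26 (adjusted p = 0.969, limma). Of the glucose transporters, Slc2a3, the high-affinity transporter GLUT3, rose by 1.52 ± 0.29 and 0.84 ± 0.21. Its ranges overlapped in both cohorts, at 7.51 to 9.09 (median 8.07) and 8.35 to 10.63 (median 9.58) in the training cohort. Slc2a1, the widely expressed GLUT1, was not called in the training cohort at -0.67 ± 0.52 and rose by 0.66 ± 0.14 in the validation cohort without overlap.

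The Hk1 and Hk3 promoters are shown for the RUNX core, since Cbfb is the partner of the RUNX factors. A role of these factors in the changes of Hk1 and Hk3 was not tested. Capitals mark the RUNX core TGTGGT, searched on both strands, in the 250 bases before a start (RefSeq, GRCm38.p6). The window of Hk1 is that of the second of its 2 starts, chr10:62340422-62340671 on the minus strand, and that of Hk3 is chr13:55021386-55021635 on the minus strand. The window of the first Hk1 start holds no match. The match in Hk3 is on the other strand and reads ACCACA.
Hk1: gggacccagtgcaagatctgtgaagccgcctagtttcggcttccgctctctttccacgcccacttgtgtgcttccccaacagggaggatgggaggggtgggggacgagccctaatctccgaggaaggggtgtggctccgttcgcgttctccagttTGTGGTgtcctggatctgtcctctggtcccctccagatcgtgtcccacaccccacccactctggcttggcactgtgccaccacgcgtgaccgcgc
Hk3: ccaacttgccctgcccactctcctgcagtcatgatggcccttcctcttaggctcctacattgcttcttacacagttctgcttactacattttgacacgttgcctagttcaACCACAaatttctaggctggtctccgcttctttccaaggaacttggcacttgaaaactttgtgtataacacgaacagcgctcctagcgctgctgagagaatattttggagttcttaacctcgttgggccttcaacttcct
The core lay in 6 of 48 promoter windows of the 33 members with an entry (12.5%) and in 14.0% of 32851 windows of all genes. A match in letters does not say that a factor binds there.

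In upper glycolysis 3 of 7 members rose in the training cohort and 6 of 7 in the validation cohort, and none fell. Pfkm, a subunit of the phosphofructokinase that commits sugar to glycolysis, had the largest change after Pklr. It ranged from 1.79 to 2.81 (median 2.58) log2 CPM at T0 and from 3.25 to 6.82 (median 6.54) in the last training libraries, higher in 7 of 7 mice and without overlap. The change was 3.499 ± 0.46 (adjusted p = 0.000186, limma). Validation Pfkm went from 2.03 to 2.86 (median 2.62) to 5.31 to 6.45 (median 6.22), also without overlap. That change was 3.59 ± 0.24 (adjusted p = 8.84e-06, limma). The lowest of the last training values, 3.25, was that of mouse 3368, and without that mouse the training change was 4.01.

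The other phosphofructokinase subunits differed from Pfkm. Pfkl, the liver type, was not called in either cohort, at -0.09 ± 0.32 and 0.10 ± 0.10. Pfkm minus Pfkl within a library was -4.30 to -2.91 (median -3.13) log2 CPM at T0 and -0.64 to 1.17 (median 0.20) in the last training libraries, without overlap. In leukemia in the validation cohort that difference was -0.87 to 0.34 (median 0.09), from a T0 median of -3.33. Pfkp, the platelet type, was not called in the training cohort at 1.04 ± 0.44 (adjusted p = 0.076, limma). Without mouse 3368 it rose there by 1.56 ± 0.21. Validation Pfkp went from 6.67 to 6.81 to 8.22 to 8.93, a change of 1.92 ± 0.11 (adjusted p = 5.22e-06, limma) without overlap.

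Aldoa rose by 1.32 ± 0.29 in the training cohort and by 1.40 ± 0.13 in the validation cohort, where its ranges of 7.99 to 8.43 and 9.30 to 10.03 did not overlap. Tpi1, triosephosphate isomerase, rose by 1.40 ± 0.25 and 1.18 ± 0.17. The brain-type aldolase Aldoc and Gpi1 rose in the validation cohort, by 1.24 ± 0.25 and 1.004 ± 0.09, and were not called in the training cohort at 0.56 ± 0.43 and 0.11 ± 0.35. Upper glycolysis therefore had the same 3 members called higher in both cohorts, Pfkm, Aldoa and Tpi1.

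Lower glycolysis did not move as a block. In the training cohort Pklr was the single member higher and Gapdh the single member lower of 7, and in the validation cohort Pgam1 was higher and Bpgm lower of 6. Gapdh, the glyceraldehyde-3-phosphate dehydrogenase, went from 4.76 to 5.47 (median 4.97) log2 CPM at T0 to 1.33 to 4.63 (median 3.13) in the last training libraries, lower in 7 of 7 mice and without overlap. The change was -1.80 ± 0.35 (adjusted p = 0.00163, limma). Validation Gapdh was not called, at 0.04 ± 0.15 (adjusted p = 0.84, limma), with 5.05 to 5.30 at T0 and 4.76 to 5.67 in leukemia. The gene is often used as a reference for expression, and here it differed by cohort.

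Bpgm was not called in the training cohort, at 0.29 ± 0.70 (adjusted p = 0.766, limma), and its last values fell into low and high mice. The last library of mouse 3338 stood at 5.81 log2 CPM, that of 3336 at 6.47, of 3334 at 6.94 and of 3341 at 7.26. These 4 lay below the T0 range of 7.72 to 8.75. Mouse 3370 stood at 9.85, 3357 at 11.41 and 3368 at 12.12, all above it. Globin genes took 0.213% to 0.541% of the reads in the low 4 and 4.66%, 10.9% and 21.7% in the high 3, in the same order as Bpgm. Validation Bpgm fell by 2.80 on the log2 scale (change -2.80 ± 0.45, adjusted p = 0.000836, limma), from 8.40 to 11.51 (median 9.21) to 5.59 to 9.67 (median 6.37), lower in 6 of 6 mice with overlapping ranges. The median globin share there went from 2.12% of reads over all 10 CM mice at T0 to 0.120% in leukemia.

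Pklr rested on few reads outside a single mouse. The 7 T0 libraries of the training cohort held 3 Pklr reads in all and the 7 last libraries 2504, of which 2266 came from mouse 3334. The other 6 held 238 reads together, with 96 in mouse 3341 and 2 to 5 in each of 4 mice. The fitted change was 5.3997 ± 1.33 (adjusted p = 0.00601, limma). The ratio of pooled CPM was 687 (95% counting interval 235 to 3334) and 77.6 (26.2 to 379) without mouse 3334. With T1 as the baseline in place of T0 the change was 2.44 and was not called (adjusted p = 0.149, limma).

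The window before the first of 2 Pklr starts, chr3:89135892-89136141 on the plus strand, is shown because Pklr is the red cell pyruvate kinase. Capitals mark AGATAA, the core recognised by GATA factors, which drive red cell genes.
Pklr: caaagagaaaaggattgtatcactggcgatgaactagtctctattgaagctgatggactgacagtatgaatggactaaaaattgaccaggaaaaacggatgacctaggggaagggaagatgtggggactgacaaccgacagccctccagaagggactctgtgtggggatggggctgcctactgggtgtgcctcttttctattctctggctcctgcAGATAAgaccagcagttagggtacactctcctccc
This core, searched on both strands, lay in 8.33% of the members' windows and in 9.99% of all windows. The window of the second Pklr start holds no match.

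Pgam1, phosphoglycerate mutase, rose in the validation cohort by 1.57 ± 0.23 (adjusted p = 0.000465, limma) from low levels of 1.21 to 1.52 to 2.64 to 3.32, and was not called in the training cohort at 0.32 ± 0.45. Pkm, Eno1 (enolase) and Pgk1 (phosphoglycerate kinase) were not called in either cohort. Their training changes were 0.41 ± 0.32, -0.30 ± 0.32 and 0.55 ± 0.37, and their validation changes -0.29 ± 0.15, -0.23 ± 0.16 and 0.19 ± 0.25.

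Lactate genes showed opposite changes of the dehydrogenase subunits. Ldha, the subunit that favours lactate formation, went from 6.78 to 7.70 (median 6.87) log2 CPM at T0 to 6.18 to 9.36 (median 8.89) in the last training libraries. It was higher in 6 of 7 mice, and mouse 3368 held the lowest late value. The change was 1.42 ± 0.36 (adjusted p = 0.00713, limma), and 1.77 without that mouse. Validation Ldha went from 7.09 to 7.37 (median 7.24) to 8.80 to 9.05 (median 8.90), a change of 1.66 ± 0.10 (adjusted p = 4.54e-06, limma) without overlap. Ldhb, the subunit of oxidative tissues, fell to -2.003 to 0.93 (median -0.63) from 1.10 to 2.11 (median 1.32) in the training cohort, with no overlap. The change was -2.004 ± 0.46 (adjusted p = 0.00418, limma). Validation Ldhb changed by -3.22 ± 0.56 (adjusted p = 0.00123, limma), from 1.47 to 2.22 to -4.01 to 0.42. The median of Ldhb minus Ldha within a library went from -5.55 to -9.45 in the training cohort and from -5.40 to -10.12 in the validation cohort.

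Slc16a1, the lactate transporter MCT1, rose by 2.21 ± 0.43 in the training cohort, from 3.54 to 4.60 (median 4.48) to 4.25 to 7.71 (median 6.74) and higher in 6 of 7 mice. Among validation mice it rose by 2.35 ± 0.23 (adjusted p = 6.33e-05, limma), from 4.92 to 5.61 to 7.07 to 8.52 without overlap. Slc16a3, the exporter MCT4, stood at -1.31 ± 0.51 in the training cohort (not called, adjusted p = 0.0558, limma) and changed by -1.29 ± 0.20 in the validation cohort. With T1 as the baseline the validation value of Slc16a3 was 0.01, so this decrease depends on the T0 libraries. Slc16a1 minus Slc16a3 within a library had a median of -1.60 at T0 and 1.48 at the end in the training cohort.

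Ldha and Slc16a1 rose together in both cohorts, and the windows before their starts are shown for the E-box CACGTG, the core read by MYC and related factors. The Ldha window is chr7:46845554-46845803 on the plus strand, before the first of 2 starts, and that of Slc16a1 is chr3:104638414-104638663 on the plus strand.
Ldha: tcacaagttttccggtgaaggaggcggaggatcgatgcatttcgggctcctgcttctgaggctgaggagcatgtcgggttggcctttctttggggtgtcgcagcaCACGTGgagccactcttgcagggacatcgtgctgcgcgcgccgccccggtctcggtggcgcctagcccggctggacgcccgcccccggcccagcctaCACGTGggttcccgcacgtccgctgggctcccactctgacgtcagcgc
Slc16a1: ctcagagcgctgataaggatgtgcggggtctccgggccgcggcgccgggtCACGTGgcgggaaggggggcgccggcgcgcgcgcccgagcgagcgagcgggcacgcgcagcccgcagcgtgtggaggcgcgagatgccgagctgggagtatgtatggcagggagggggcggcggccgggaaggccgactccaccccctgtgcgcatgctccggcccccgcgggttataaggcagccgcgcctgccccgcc
The E-box, whose letters read the same on both strands, lay in 4 of the 48 windows of members (8.33%) and in 6.02% of all windows. These 4 were those of the first Ldha start, Slc16a1, the first Pfkm start and the second Pfkfb3 start. Pfkm rose and Pfkfb3 fell in both cohorts, and the window of the second Ldha start has no E-box. A role of MYC in the changes of these genes was not tested. ACGTG, the core of hypoxia-response elements, which every CACGTG contains, lay in 16 of the 48 windows (33.3%) and in 16.6% of all windows. Of 10 other hypoxia-response genes, none rose and 4 fell in the last training libraries, beside 10.1% and 35.9% of all genes. The validation cohort measured 8, of which 3 rose and 2 fell, beside 31.4% and 33% of all genes.

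The regulators mostly fell, with 1 exception among the 4 in each cohort. Pdk1 and Pdk3 are kinases that shut off pyruvate dehydrogenase and so keep pyruvate out of mitochondria. Pdk1 went from 5.79 to 7.29 (median 6.78) to 3.59 to 6.01 (median 4.90) in the training cohort, a change of -1.77 ± 0.29 (adjusted p = 0.000645, limma) and lower in 7 of 7 mice. Pdk3 rose by 1.37 ± 0.32 (adjusted p = 0.00428, limma), from 3.27 to 4.34 (median 4.05) to 3.75 to 6.04 (median 5.53), with overlap. Among validation mice Pdk1 changed by -1.50 ± 0.30 and Pdk3 by 2.05 ± 0.13, the latter from 4.01 to 4.40 to 6.03 to 6.52 without overlap. Pdk1 minus Pdk3 was 1.73 to 3.51 in the T0 libraries of the training CM mice. In their last libraries the difference was -1.99 to 2.26 with a median of -0.72, and in leukemia in the validation cohort -1.74 to 0.37 with a median of -1.36.

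Pfkfb3 and Pfkfb4 make and remove fructose-2,6-bisphosphate, an activator of phosphofructokinase. Pfkfb4 changed by -1.99 ± 0.45 in the training cohort and by -2.79 ± 0.41 in the validation cohort, there from 6.66 to 7.07 to 2.07 to 5.85 without overlap. Pfkfb3 changed by -1.41 ± 0.42 (adjusted p = 0.0166, limma) and -0.74 ± 0.24 (adjusted p = 0.0236, limma). Under median-ratio scaling of the libraries the training calls of Pfkfb3 (-0.94, adjusted p = 0.189, limma) and Pfkfb4 (-1.52, adjusted p = 0.062, limma) were lost.

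Of the 7 pentose phosphate members, Tkt, the transketolase of the non-oxidative branch, was the only one called in the training cohort. It went from 7.23 to 8.23 (median 7.57) to 5.75 to 9.79 (median 9.36), a change of 1.27 ± 0.45 (adjusted p = 0.0373, limma), and was higher in 6 of 7 mice. Mouse 3368 held the lowest late value, and without it the change was 1.80 ± 0.21 and ribose-5-phosphate isomerase (Rpia) was also called at 1.01 ± 0.16. Leaving out any 1 of the other 6 mice ended the call of Tkt. Among validation mice Tkt rose by 1.30 ± 0.16 without overlap, and the isomerases Rpia and Rpe rose by 0.48 ± 0.13 and 0.36 ± 0.11. Taldo1 fell there (-0.96 ± 0.23, adjusted p = 0.00611, limma), from 9.21 to 9.92 to 7.49 to 9.04, but was not called against T1 (-0.37, adjusted p = 0.148, limma) or in the training cohort (0.26 ± 0.31). The oxidative branch was not called in either cohort. G6pdx, its entry enzyme, stood at -0.25 ± 0.28 and 0.26 ± 0.20, Pgls at -0.07 ± 0.38 and -0.17 ± 0.20, and Pgd at -0.62 ± 0.33 and -0.46 ± 0.18 (adjusted p = 0.0529 in the latter, limma).

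The blood of Ctrl mice also changed over the study, which bears on the training result. From T0 to T10 in the 7 training Ctrl mice 6 members were called higher and 23 lower, 85.3% beside 83.1% of all genes (10.5% higher and 72.7% lower). The median change was -1.10 over members and -1.81 over all genes, and the median globin share rose from 1.02% to 31.2% of reads. Bpgm led the increases at 4.05 ± 0.45 (adjusted p = 0.000456, limma), from 7.25 to 8.92 (median 8.16) to 9.92 to 13.29 (median 12.26) without overlap. Gapdh (-3.02 ± 0.50), Slc16a3 (-2.78 ± 0.56) and Hk3 (-2.60 ± 0.44) led the decreases. Slc2a3 (1.63), Tpi1 (1.23) and Hk1 (1.10 ± 0.18) also rose in these control mice, whereas Pfkm and Ldha changed by -0.70 ± 0.23 and -0.71 ± 0.24. In the same libraries all 12 erythroid and all 12 platelet markers rose, B, T and NK cell markers fell in full, and 10 of 13 neutrophil and 8 of 10 monocyte markers fell with 1 higher in each. Their part in these changes was not tested. Median-ratio scaling adds a constant to all genes of a library, and with it the median of all genes was -0.11 and that of members 0.60, with 17 members higher and 5 lower. The share of all genes called with it is not given here. On that scale Pfkm stood at 1.01 and Ldha at 0.99, so the sign of a small change in Ctrl mice depends on the scaling.

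The change of each CM mouse was therefore set against the change in Ctrl mice. The difference (CM, T0 to last, minus Ctrl, T0 to T10) was called for 16 members, 15 positive and 1 negative, 47.1% beside 38.6% of all genes (33.7% positive and 4.92% negative). Its median was 1.26 over members and 0.95 over all genes, so a difference near 1 is that of a typical gene. For the CM mice the final sample came between months 4 and 10. Pfkm stood out with 3.98 ± 0.56 (adjusted p = 0.00108, limma), as the CM changes of 0.46 to 4.75 all lay above the Ctrl changes of -1.06 to -0.42. Pdk3 (2.09 ± 0.43) and Hk1 (1.37 ± 0.35, adjusted p = 0.00984, limma) were the other called members whose changes did not overlap between the arms. Tkt (3.13 ± 0.59), Pfkp (2.76 ± 0.66), Slc16a1 (2.02 ± 0.54) and Ldha (1.97 ± 0.48) were also positive, and Bpgm was the negative member at -3.54 ± 0.91 (adjusted p = 0.00988, limma). Under median-ratio scaling, which put the median of all genes at -0.31, 7 members were positive and 5 negative. The share of all genes called on that scale is not given here, so this split is not read as a trait of the members. Pfkm (2.71), Tkt (1.87), Pfkp (1.49) and Bpgm (-4.80) kept their calls there, whereas Hk1 (0.10, adjusted p = 0.885, limma), Pdk3 (0.83, adjusted p = 0.0589, limma), Slc16a1 (0.75) and Ldha (0.71) lost theirs. Without Ctrl mouse 3349 10 members were called.

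Of the 6 members that fell in CM mice, none was called on the deposited scale as falling more than in Ctrl mice. The difference for Hk3 was 0.05 ± 0.75, for Ldhb -0.33 ± 0.64 and for Gapdh 1.30 ± 0.66 (adjusted p = 0.121, limma), none of them called. Hk3 fell by a median of 2.38 on the log2 scale in CM mice (median change -2.38) and changed by a median of -2.51 in Ctrl mice. In single mice the last CM library was also set beside the Ctrl libraries of the same month, as a description over 6 mice, since mouse 3334 was last sampled at month 6.5, which has no Ctrl library here. Pfkm and Pdk3 lay above all Ctrl libraries in 6 of 6 CM mice. Hk1, Aldoa, Ldha, Slc16a1, Pfkp, Pgam1, Rpia and Tkt did so in 5 of 6, and Gpi1, Eno1, Rpe, Pgk1 and Tpi1 in 4 of 6. Pdk1, Pfkfb3, Pfkfb4 and Bpgm lay below all Ctrl libraries in 4 of 6, whereas Hk3 and Ldhb did so in 1 and lay within their range in 5. How many of all genes lay above or below in this way was not counted, so these counts are not read as a result about the members.

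The arms were also compared month by month from month 0 to month 6. In the training cohort month 4 includes the last libraries of CM mice 3338 and 3357, and month 6 that of 3341. At month 0 no member was called in either cohort, beside 0.0054% of all genes in the training cohort and 0% in the validation cohort. At an unadjusted p under 0.05 there was 1 member in each, beside 1715 of 18508 genes (training) and 208 of 13607 genes (validation).

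At month 1 after induction Bpgm and Pfkm were higher in CM mice in both cohorts. In the training cohort 4 of 34 members were called, all higher, 11.8% beside 5.02% of all genes (3.68% higher and 1.34% lower). Pfkm ranged from 2.77 to 4.12 (median 3.59) log2 CPM in 7 CM mice and from 2.27 to 2.63 (median 2.54) in 7 Ctrl mice, without overlap. The difference was 0.86 ± 0.17 (adjusted p = 0.00854, limma). Bpgm ranged from 9.01 to 12.25 (median 9.72) in CM and from 7.18 to 8.82 (median 7.71) in Ctrl mice, also without overlap, a difference of 2.34 ± 0.53 (adjusted p = 0.0196, limma). Slc16a1 was higher by 0.53 ± 0.12 (adjusted p = 0.0232, limma), with 4.76 to 5.17 against 3.96 to 4.69. Pklr had 27 reads over the 7 CM libraries, 1 to 9 in each, and 0 in the Ctrl libraries, so it was at least 9.03-fold higher against a floor of 3 reads over the group. Hk1 just missed the threshold at 0.54 ± 0.15 (adjusted p = 0.0509, limma), and Gapdh was not called at -0.44 ± 0.17 (adjusted p = 0.163, limma). Bpgm and Pklr kept their calls in a single fit over all months with the mouse as a replicate block, and Pfkm (0.81, adjusted p = 0.624, limma) and Slc16a1 did not. With the library group also in that fit Pklr kept its call and Bpgm stood at 2.29 (adjusted p = 0.0616, limma). Without Ctrl mouse 3350 Pfkm and Pklr kept theirs, and Bpgm stood at 2.11 (adjusted p = 0.0865, limma).

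Red cell markers were higher in the same libraries. At month 1 in the training cohort 11 of 12 erythroid and 10 of 12 platelet markers were higher in CM mice, and 6 of 8 NK cell markers were lower. Cell cycle genes (6 of 12), stem and progenitor markers (5 of 12, with 1 lower) and basophil and mast cell markers (4 of 8) were also higher, and 2 of 10 monocyte markers were lower. The summed erythroid level was 12.22 to 15.47 (median 12.96) in CM and 10.34 to 11.94 (median 10.94) in Ctrl mice, and globin genes took 1.53% to 16.6% against 0.426% to 1.35% of reads. Their part in the higher Bpgm and Pklr was not tested. Kit was also higher on average, by 1.87 ± 0.51, but its ranges overlapped. It ranged from 3.14 to 4.62 log2 CPM in CM and from 1.07 to 4.95 (median 1.80) in Ctrl mice. The highest Ctrl library thus lay above every CM library.

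In the validation cohort at month 1, with 10 CM and 6 Ctrl mice, 8 of 33 members were called, all higher, 24.2% beside 28.5% of all genes (7.95% higher and 20.6% lower). Bpgm was higher by 1.75 ± 0.30 (adjusted p = 0.00416, limma), with 9.08 to 10.81 (median 10.66) against 7.71 to 9.25 (median 8.40). Pfkm was higher by 0.86 ± 0.23 (adjusted p = 0.0138, limma), with 2.86 to 4.38 (median 3.579) against 2.42 to 2.88 (median 2.77). Hk1 was higher by 0.54 ± 0.12 (adjusted p = 0.00831, limma), with 6.70 to 7.58 (median 7.35) against 6.55 to 7.07 (median 6.73). For none of the 8 were the ranges apart, as single CM mice lay within the Ctrl range. The others were Slc2a3 (0.68 ± 0.23), Ldhb (0.53 ± 0.18), Pkm (0.47 ± 0.14), Taldo1 (0.44 ± 0.13) and Ldha (0.33 ± 0.11). Ldhb was thus higher in CM mice at month 1, before it fell in leukemia. Gapdh was not called at -0.21 ± 0.11. Bpgm and Pfkm are 50% of the 4 members called at month 1 in the training cohort and 25% of the 8 in the validation cohort. All 12 erythroid markers were higher here too, as were 9 of 12 platelet, 7 of 12 cell cycle and 6 of 7 basophil and mast cell markers, and 7 of 8 NK cell and 7 of 10 B cell markers were lower. None of the 8 calls held in the fit over all months with the replicate block (Bpgm 1.75, adjusted p = 0.0811, limma). Without both mice 2700 and 2731 Bpgm, Pfkm, Hk1, Pkm and Taldo1 kept theirs, and without a single mouse 3 (Ctrl mouse 2683, 2689 or 2720) or 5 (CM mouse 2718 or 2731) members were called.

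**Figure D2:**
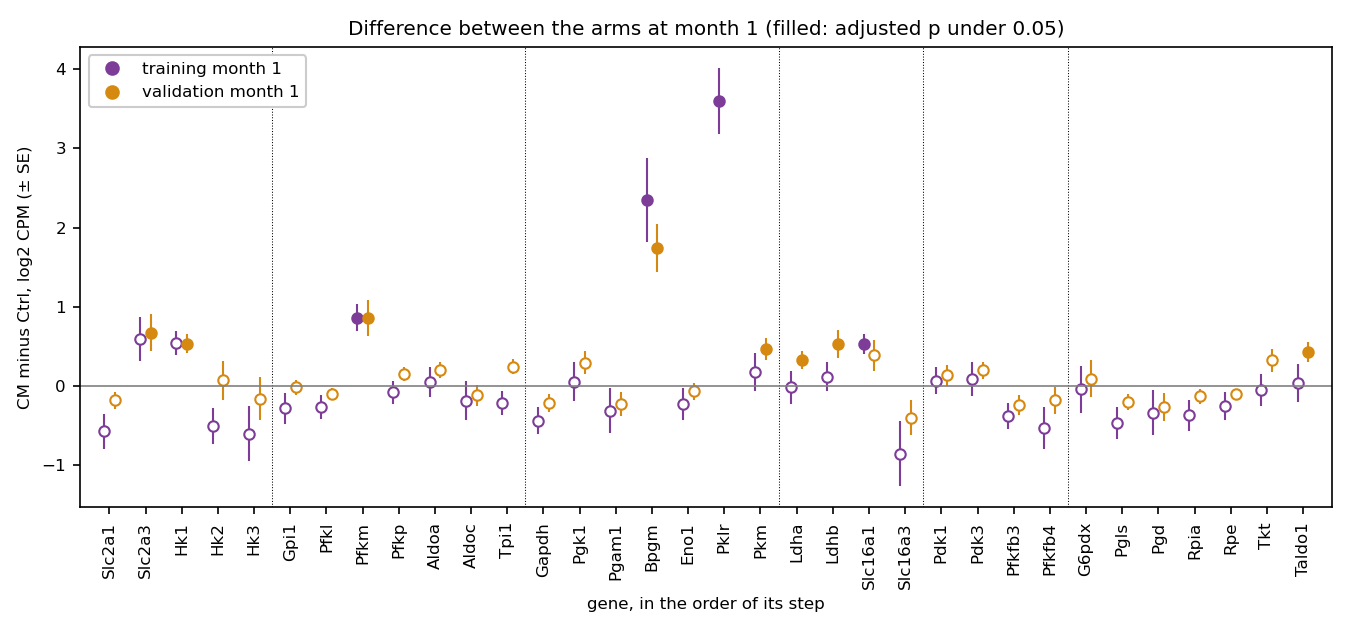
Difference between CM and Ctrl mice at month 1 in log2 CPM with its standard error, for each member in the order of its step, in the training cohort (7 against 7 mice) and the validation cohort (10 against 6 mice). Filled symbols passed the adjusted p under 0.05, and Bpgm (2.34 and 1.75) and Pfkm (0.86 and 0.86) did so in both.

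At month 2 in the training cohort 6 members were higher and 2 lower in CM mice, 23.5% beside 11.7% of all genes (5.46% higher and 6.25% lower). Hk1 was higher by 0.77 ± 0.15 (adjusted p = 0.00461, limma), with 7.30 to 8.41 (median 7.89) against 6.99 to 7.25 (median 7.07). Pfkm was higher by 0.89 ± 0.22 (adjusted p = 0.018, limma), with 2.79 to 4.37 against 2.34 to 2.51. Slc2a3 was higher by 0.94 ± 0.23 (adjusted p = 0.0165, limma), with 8.48 to 10.08 against 7.81 to 8.23. The ranges of these 3 did not overlap. Slc16a1 (0.63 ± 0.18), Pkm (0.45 ± 0.13) and Ldha (0.32 ± 0.09) were also higher. Pgls, the lactonase of the oxidative branch, was lower (-0.54 ± 0.12), as was Slc2a1 (-0.35 ± 0.09). T cell markers were higher in full in CM mice at that month (11 of 11), as were 8 of 12 platelet, 5 of 12 erythroid, 6 of 12 stem and progenitor, 3 of 13 neutrophil and 3 of 8 basophil and mast cell markers. Of B cell markers 7 of 10 were lower, of monocyte markers 3 of 10, and of NK cell and of stem and progenitor markers 1 each. The part of these markers in the differences was not tested. All 8 calls were lost in the fit over all months with the replicate block (Hk1 0.70, adjusted p = 0.369, limma). Without Ctrl mouse 3335, 3339 or 3346 5 members were called, and without Ctrl mouse 3349 or 3350 4.

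From month 3 on, single months gave no called member in the training cohort, beside 0.632%, 0.0054%, 0% and 0.0162% of all genes at months 3 to 6. At an unadjusted p under 0.05 there were 5, 2, 4 and 5 of 34 members in these months, beside 2793, 1030, 1583 and 1661 of 18508 genes. The fit over all months with the replicate block, which pools the spread over months, called Pfkm at month 4 (1.54, adjusted p = 0.0328, limma). At month 6 it called Pklr (4.75), Pfkm (2.23), Tkt (1.82), Slc16a1 (1.77), Pdk3 (1.23) and Ldha (1.22), all higher in CM mice. The validation cohort had none at months 2 to 6, beside 0.147% of all genes at month 2 and 0% at months 3 to 6. At an unadjusted p under 0.05 it had 2, 5, 0, 2 and 2 of 33 members, beside 1374, 2224, 369, 1169 and 469 of 13607 genes. There the fit over all months with the replicate block called Pfkm at month 2 (1.52, adjusted p = 0.0406, limma). At month 3 it called Pfkm (1.79), Hk1 (1.08), Slc16a1 (0.98), Ldha (0.72) and Pdk3 (0.68) higher and Pfkfb4 (-1.15) and Slc16a3 (-0.69) lower. The shares of all genes called in the fits over all months are not given here. CM mice spread widely from month 3 on. In the training cohort Pfkm ranged from 2.83 to 6.53 (median 3.03) in 7 CM mice at month 3 and from 2.22 to 2.70 (median 2.53) in Ctrl mice. At month 4 it ranged from 2.56 to 6.56 (median 3.51) against 1.58 to 2.87 (median 2.53). Validation Pfkm ranged from 2.70 to 6.59 (median 3.85) in CM mice at month 2 and from 1.82 to 3.24 (median 2.82) in Ctrl mice. The highest value at month 4 is that of mouse 3338, whose last library this is, and the lowest CM values of these months lay in or just above the Ctrl range.

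**Figure D3:**
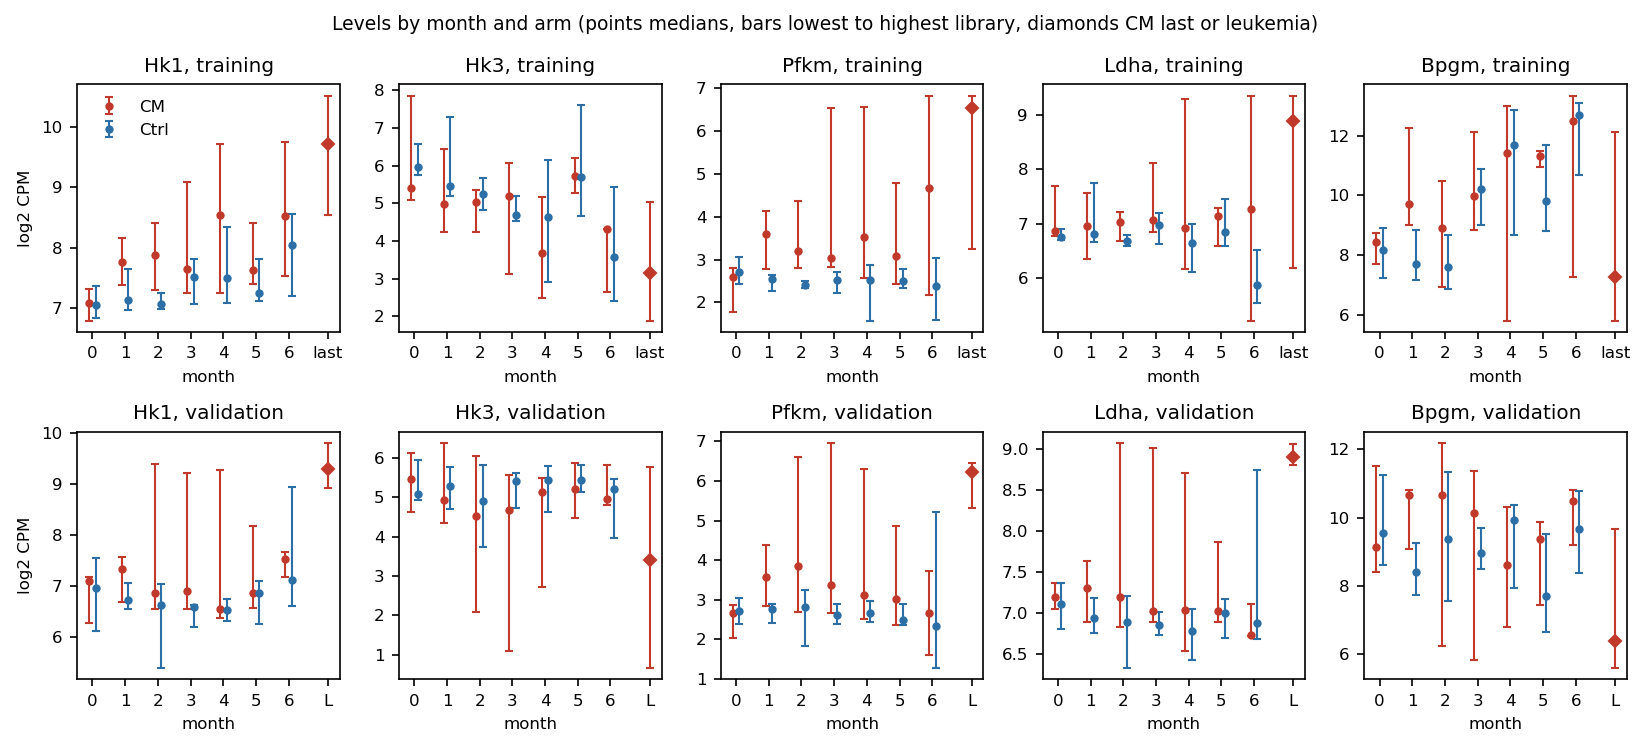
Level of Hk1, Hk3, Pfkm, Ldha and Bpgm in log2 CPM by month, for CM and Ctrl mice of the training cohort and the validation cohort. Points are medians, diamonds mark the last or leukemia libraries of the CM mice, and bars run from the lowest to the highest library; the high Ctrl value of Pfkm at month 6 in the validation cohort (5.21) is the library of mouse 2702 with rod photoreceptor genes.

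The mean over months 1 to 3 gave 6 members higher and 6 lower in the training cohort, 35.3% beside 26.9% of all genes (8.99% higher and 17.9% lower). Under median-ratio scaling the split was 8 higher and 1 lower, and the share of all genes called on that scale is not given here. With voom on recovered reads Pfkm (1.12, adjusted p = 0.0613, limma), Slc2a1, Pfkfb3 and Rpia lost their calls. Erythroid (11 of 12), platelet (11 of 12), T cell (9 of 11) and basophil and mast cell markers (6 of 8) were higher in CM mice over these months, and B cell (9 of 10), NK cell (6 of 8) and monocyte markers (3 of 10) were lower. The part of these markers was not tested. Pklr (2.75 ± 0.43), Bpgm (1.06 ± 0.24), Pfkm (0.98 ± 0.27), Slc2a3 (0.68 ± 0.14), Slc16a1 (0.64 ± 0.12) and Hk1 (0.58 ± 0.14) were higher. Gapdh was lower in CM mice without overlap, at -0.32 ± 0.06 (adjusted p = 0.00245, limma), with 4.49 to 4.76 in CM and at least 4.87 in Ctrl mice. Pgls (-0.39 ± 0.09), Rpia (-0.31 ± 0.10), Slc2a1 (-0.30 ± 0.09), Pfkfb3 (-0.27 ± 0.09) and Pfkl (-0.21 ± 0.06) were the other lower members. Without Ctrl mouse 3350 7 of the 12 were called, and Pfkm stood at 0.88 (adjusted p = 0.0605, limma). No validation member was called over months 1 to 3, beside 0.0147% of all genes. At an unadjusted p under 0.05 there were 9 of 33 members, beside 3631 of 13607 genes. Without CM mouse 2700 a single member was called. Bpgm was at 1.17 ± 0.30 (adjusted p = 0.093, limma), Pfkm at 1.27 ± 0.43 (adjusted p = 0.146, limma) and Gapdh at -0.21 ± 0.09 (adjusted p = 0.166, limma).

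Induction itself was checked in Ctrl mice, which had received poly(I:C) too. From T0 to T1 no member was called in the training cohort, beside 0% of all genes. In the validation cohort 3 members were higher and 4 lower, 21.2% beside 33.3% of all genes (25.7% higher and 7.58% lower), and there T0 and T1 cannot be told apart from their sequencing run batches. NK cell (7 of 8), basophil and mast cell (5 of 7), cell cycle (5 of 12), monocyte (3 of 10) and erythroid markers (3 of 12) were lower at T1, and T cell (5 of 11) and B cell markers (4 of 10) were higher, and their part was not tested. Pdk1 (0.52 ± 0.10), Eno1 (0.48 ± 0.07) and Gapdh (0.41 ± 0.12) were higher. Taldo1 (-0.84 ± 0.17), Tpi1 (-0.51 ± 0.15), Slc16a3 (-0.47 ± 0.14) and Tkt (-0.43 ± 0.08) were lower. Without mouse 2689 4 members were called.

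The 5 validation mice sampled by week show the course in single animals, with no replicate and so no test. In CM mouse 3131 Kit went from 3.35 at week 20 to 8.05 at week 24 and 9.70 at week 28. Over these weeks Pfkm went from 2.60 to 6.64 and 6.54, Hk1 from 6.60 to 8.79 and 9.13, and Ldha from 6.81 to 8.69 and 9.82. Bpgm went the other way, from 12.33 to 8.17 and 7.51, as the globin share went from 23.3% to 1.14% and 0.673%. Pfkm had thus reached its highest level at week 24 while Kit was still lower than at week 28.

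CM mouse 3130 had Kit at 5.62, 8.95 and 11.19 at weeks 20, 24 and 25. Its Pfkm stood at 4.91, 6.44 and 6.15, its Hk1 at 7.84, 8.94 and 9.14 and its Ldhb at 1.67, -0.74 and -2.11. CM mouse 3200, sampled at weeks 10, 14 and 18, had Kit at 5.43, 6.44 and 9.27, Pfkm at 4.36, 6.25 and 6.00 and Pdk1 at 7.70, 6.14 and 5.96. In all 3 CM mice Pfkm peaked at the middle sampling. In the Ctrl mice Pfkm stayed at 2.15 to 2.33 (mouse 3127) and 2.61 to 2.66 (mouse 3202), and Hk1 at 6.04 to 6.95 and 6.62 to 6.69.

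Differences between isoenzymes are taken within a library, so its total does not enter. Hk1 minus Hk3 was 3.21, 5.78 and 6.75 in mouse 3131, 3.35, 4.56 and 5.83 in mouse 3130 and 3.03, 4.53 and 5.17 in mouse 3200, against 1.29 to 1.95 in the Ctrl mice. Pfkm minus Pfkl was higher at the last than at the earliest sampling in each CM mouse, at -2.59, 0.98 and 0.30, at -0.73, 0.64 and 0.80, and at -1.58, 0.51 and 0.35, against -3.85 to -3.21 in the Ctrl mice. At the earliest sampling Pdk1 minus Pdk3 was 3.26, 2.41 and 3.08 in these mice, within the Ctrl range of 2.37 to 3.50, and at the last it was -2.32, -1.36 and -0.13. At the earliest sampling the hexokinase and phosphofructokinase differences of all 3 CM mice thus lay outside the range of the Ctrl mice sampled by week. Those of the Pdk pair did so only later. Among other Ctrl mice of the cohort, mouse 2689 at T6 had Pfkm at 2.97 and Pfkl at 5.32. These levels lay closer together than those of CM mouse 3131 at week 20 (2.60 and 5.20).

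**Figure D4:**
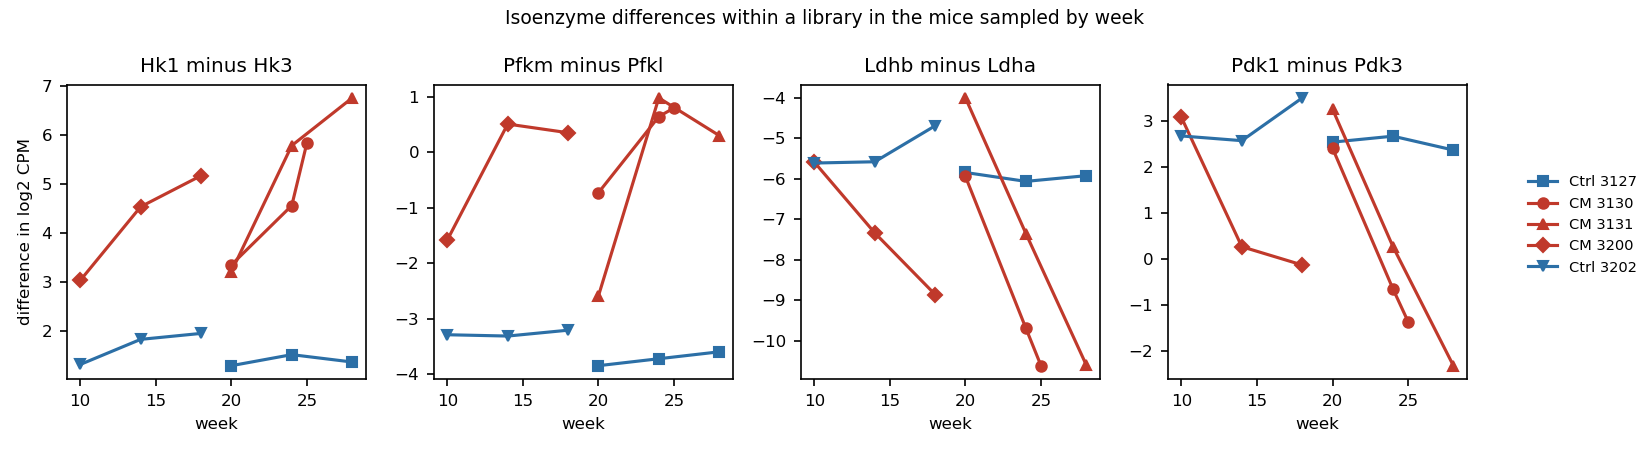
Difference in log2 CPM between isoenzyme pairs within a library, by week, in 3 CM mice (red) and 2 Ctrl mice (blue) of the validation cohort; each line is a mouse. Hk1 minus Hk3 and Pfkm minus Pfkl rise and Ldhb minus Ldha and Pdk1 minus Pdk3 fall in the CM lines, while the Ctrl lines stay within 1.29 to 1.95 for Hk1 minus Hk3.

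Other genes of the pathway, from a list of 51, are named here by examples chosen after their values were seen. Of 42 measured in the training cohort, 5 rose and 7 fell in the last CM libraries, with a median change of 0.12. Of all genes 10.1% rose and 35.9% fell there. Bsg, the chaperone that carries lactate transporters to the membrane, rose by 1.77 ± 0.20 (adjusted p = 8.99e-05, limma), and Myc by 1.58 ± 0.48 (adjusted p = 0.018, limma). Slc16a7, the pyruvate and lactate transporter MCT2, changed by -2.55 ± 0.37, Tigar, a fructose-2,6-bisphosphatase, by -2.36 ± 0.33 and Slc2a6, a hexose transporter of the lysosome, by -2.17 ± 0.48. Among validation mice 24 of 39 rose and 7 fell in leukemia, with a median of 0.64, while 31.4% of all genes rose and 33% fell. Bsg (1.05 ± 0.15) and Myc (1.36 ± 0.34) rose there too, and Slc16a7 (-1.85 ± 0.44), Tigar (-2.13 ± 0.40) and Slc2a6 (-1.39 ± 0.24) fell. Components of the pyruvate dehydrogenase complex rose in the validation cohort, with Dlat at 0.97 ± 0.16, Pdhx at 0.99 ± 0.13 and Dld at 0.92 ± 0.13, as did the phosphatase Pdp2 that switches the complex on (1.48 ± 0.15). None of these 4 was called in the training cohort.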

How the data were processed

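Blood RNA of 35 mice was analysed in 2 tables of log2 CPM that the authors deposited, 1 per cohort. Per the submitters' processing notes, STAR, featureCounts of Subread, edgeR and the build GRCm38 were used, with neither tool versions nor the strand setting stated in those notes. The table names state filters of 0.5 CPM (training) and 5 CPM (validation) in 2 samples. The deposited log2 values carry a prior of 0.25 reads, and undoing it gave whole reads for 100% of values (tolerance 0.01 reads). Per the labels, training libraries were made with RiboErase; of the validation libraries 38 (T0, T1 and L) were unstranded and 78 stranded, so antisense reads cannot be told apart in the former.

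Groups came from the labels. Arm comparisons per month, and over the mean of months 1 to 3, were fitted on the deposited log2 CPM with sex as a covariate and a trended prior variance (limma 3.58.1, R 4.3.3). Comparisons within mice (last, L, T10 or T1 against T0) had the mouse as a replicate block, since the same animals were sampled. The net change was fitted on the differences per mouse. Tests were two-sided with Benjamini-Hochberg adjustment over all genes of the table, and all adjusted p are from limma. Changes are log2 ± SE, and no composition factor was applied. Counting intervals are exact at 95% and, like the floor of 3 reads, cover counting error only. Levels per kilobase used the longest coding transcript of GENCODE, and promoters came from RefSeq (GRCm38.p6). The script was tested on simulated data. Other tools were Python 3.11.15, pandas 2.3.3, numpy 2.4.6 and scipy 1.17.1.

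Alternatives were median-ratio scaling, voom on recovered reads, a stricter filter (mean log2 CPM above 1), a prior of 2 reads, leaving out mice, no sex covariate, no replicate block and a single fit over all months with the block. Library totals without globin genes, T1 as the baseline and leaving out both mice 2700 and 2731 were added after seeing the data. All 34 members are accounted for in each comparison. Full values are given for called members with the largest changes, up to 10 in each direction, and for Bpgm, Pklr and Gapdh in the main comparisons. The members and lists were chosen with earlier results of these data known.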

Additional observations from a re-analysis of the deposited data

Results flagged for a closer look

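In groups of 4 to 10 mice a library far from the rest was marked by Dixon's test, which chance passes in about 1 of 20 groups. In Ctrl mice these were Hk1 at month 2 (mouse 3342, 7.25 log2 CPM), the mean over months 1 to 3 of Slc2a1 (6.23) and Rpia (5.15) in the same mouse, and Pkm at month 1 in the validation cohort (mouse 2705, 9.10). Among the changes from T0 to the last training library, mouse 3368 stood lowest for Tkt (-1.93) and Pfkm (0.46), and mouse 3334 for Hk3 (-5.97) and Pfkfb3 (-4.19). Mouse 3368 also stood lowest for Pfkp (-2.07), Rpe (-1.82), Pgls (-2.41) and Rpia (-2.52) among the changes that enter the net change. Among the changes to leukemia, mouse 2731 stood highest for Pgam1 (2.11) and Slc2a1 (1.35), and mouse 2684 lowest for Aldoc (0.23).

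The change over the study differed between the arms, by the test of the difference itself, for 16 members, 47.1% beside 38.6% of all genes. The CM mice ended at months 4 to 10 and the Ctrl mice at month 10. The difference was negative for Bpgm (-3.54). It was positive for Pfkm (3.98), Tkt (3.13), Pfkp (2.76), Rpia (2.66), Pgam1 (2.50), Aldoc (2.43), Pgls (2.38), Gpi1 (2.32), Pdk3 (2.09), Slc16a1 (2.02), Ldha (1.97), Eno1 (1.79), Pfkl (1.62), Rpe (1.49) and Hk1 (1.37), beside a median over all genes of 0.95. Under median-ratio scaling 8 of the 16 lost their calls, among them Hk1 (0.10), Rpe (0.22) and Pfkl (0.36), and 8 kept theirs.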

How the results depend on the processing

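The last-library and leukemia comparisons kept their counts within 1.5 times under each setting and omitted mouse. Shares of all genes called under these settings are not given here, apart from the count for the leukemia pairs without mouse 2731. In the fit over all months with the replicate block, which changes both the pairing and the pooling of the spread over months (consensus correlation 0.034 training, 0.175 validation), 2 members were called at training month 1, 0 at month 2, 1 at month 4 and 6 at month 6, and in the validation cohort 0 at month 1, 1 at month 2 and 7 at month 3. Adding the library group gave 1, 0 and 6 at training months 1, 2 and 6. Without both mice 2700 and 2731 the validation counts were 5 at month 1 and 1 over months 1 to 3. Leaving out 1 mouse in turn gave 2 to 5 (month 1), 4 to 9 (month 2), 0 to 1 (month 5), 7 to 13 (months 1 to 3) and 10 (without Ctrl mouse 3349) to 22 (net change) in the training cohort, and 3 to 12 (month 1), 0 to 1 (months 1 to 3) and 4 to 9 (Ctrl T1) in the validation cohort. Median-ratio scaling, which shifts all genes of a library alike, gave positive values in Ctrl T10 against T0 for Pdk1 (0.84), Pfkl (0.0327), Pfkfb4 (0.90), Rpe (0.0569), Pgd (0.30), Ldhb (0.36), G6pdx (1.17), Pfkm (1.01), Pdk3 (0.92) and Ldha (0.99), those of Pfkl and Rpe near 0, and T1 as the baseline reversed Slc16a3 (0.00817) in leukemia. The cause of these shifts was not tested. Depth limits Pklr, with 3 reads over the 7 training CM libraries at T0.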

Other observations

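Other genes of the pathway also differed between the arms by month. At month 1 Bsg was higher in CM mice in both cohorts, by 0.92 ± 0.23 (adjusted p = 0.033, limma) and 0.68 ± 0.15 (adjusted p = 0.00712, limma), and so was Pcx, the pyruvate carboxylase, by 1.48 ± 0.38 and 0.47 ± 0.16. Slc2a6 was lower in both, by -0.98 ± 0.25 and -0.59 ± 0.21. These were the 3 genes called of 42 in the training cohort at that month, 7.14% beside 5.02% of all genes, and the validation cohort had 4 higher and 3 lower of 39, 17.9% beside 28.5%. Over months 1 to 3 of the training cohort 5 were higher and 5 lower, 23.8% beside 26.9% of all genes. Month 2 had 1 in each direction, beside 5.46% of all genes higher and 6.25% lower. In leukemia in the validation cohort the testis-type lactate dehydrogenase Ldhc (4.23 ± 0.85) and the neuronal enolase Eno2 (3.35 ± 0.80) rose most of the list, and Ldhc also rose in the last training libraries (2.82 ± 0.92).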
